A study of Mus musculus with 14 samples.

Results

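The genes described here encode the nuclear-encoded subunits of the mitochondrial respiratory chain and of ATP synthase, read in the visual cortex of mice stimulated at 20Hz or 40Hz. They were chosen by symbol alone: every listed gene whose name begins with Nduf followed by a, b, c, s or v and a digit, the Sdh a to d genes, and genes whose names begin with Uqcr, Cox4i, Cox5, Cox6, Cox7, Cox8 or Atp5, without the Ndufaf assembly factors. That rule found 81 of the 12874 listed genes: 36 of complex I, 4 of complex II, 8 of complex III, 17 of complex IV and 16 of ATP synthase. Ndufa4 was placed in complex IV, where its protein is now known to sit. All 14 animals were male and wild type, the wild-type offspring of 5xFAD breeding on a B6SJL background, where 5xFAD is a transgenic line that develops amyloid plaques. Each frequency was given for 1 h to 7 mice, and no unstimulated mice were analysed here. The labels do not name the kind of stimulus. At 20Hz, 3 mice were 5 months old (replicates 1 to 3) and the other 4 were 4 months old, and at 40Hz, 4 mice were 5 months old (replicates 2 to 5) and the other 3 were 4 months old. The frequency comparison is thus between 2 stimulated groups.

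The respiratory chain passes electrons from NADH and succinate to oxygen and pumps protons out of the mitochondrial matrix, and ATP synthase uses the returning protons to make ATP. Complex I takes electrons from NADH, complex II from succinate, complex III hands them to cytochrome c and complex IV hands them to oxygen. A few hydrophobic subunits are made from mitochondrial DNA, and the others, most of which are described here, come from nuclear genes and are assembled in fixed ratios. In cortex most of the ATP made this way pays for synaptic signalling and for restoring ion gradients after spikes, and the transcription factors NRF1 and GABP, an ETS factor, are known regulators of these genes.

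Promoters of 66 of the 81 members were found in the RefSeq table of build GRCm38.p6, each read as the 250 bases before the annotated start. The NRF1 motif, searched as GCGCANGCG on both strands, was in 13 of the 66 (19.7%), in 11.1% of the 10135 genes of the deposited table with a promoter and in 5.86% of all 27025 promoters. Those 13 were Ndufa5, Ndufa8, Ndufa11, Ndufb4, Ndufs5, Ndufs6, Sdha, Sdhd, Cox6a1, Atp5c1, Atp5h, Atp5g2 and Atp5k. The ETS motif CCGGAAGT was in 3 members (4.55%; 5.83% of the table), YY1's AAGATGGC in 1 (1.52%; 2.17% of the table) and the TATA box, searched as TATAAA, in 6 (9.09%; 8.48% of the table), all on both strands, and none of these motifs lies within another. A match is a description of the letters and no measure of binding. Below are 4 promoters with the NRF1 motif, 1 from each complex that holds such a match, and that of Cox8b, the member that varied most, which holds none of the 4 motifs. Capitals mark the NRF1 motif, and in Atp5h also the ETS motif on the opposite strand.
Ndufs5, chr4:123718187-123718436, minus strand: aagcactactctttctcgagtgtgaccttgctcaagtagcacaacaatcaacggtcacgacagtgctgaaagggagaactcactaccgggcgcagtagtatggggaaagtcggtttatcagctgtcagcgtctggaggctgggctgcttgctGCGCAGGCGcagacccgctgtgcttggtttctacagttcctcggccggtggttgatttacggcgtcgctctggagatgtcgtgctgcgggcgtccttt
Sdha, chr13:74350241-74350490, minus strand: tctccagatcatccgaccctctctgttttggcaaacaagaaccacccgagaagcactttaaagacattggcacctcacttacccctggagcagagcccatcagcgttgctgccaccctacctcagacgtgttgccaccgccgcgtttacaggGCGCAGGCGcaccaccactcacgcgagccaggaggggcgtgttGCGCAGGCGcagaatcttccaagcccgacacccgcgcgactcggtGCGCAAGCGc
Cox6a1, chr5:115348959-115349208, minus strand: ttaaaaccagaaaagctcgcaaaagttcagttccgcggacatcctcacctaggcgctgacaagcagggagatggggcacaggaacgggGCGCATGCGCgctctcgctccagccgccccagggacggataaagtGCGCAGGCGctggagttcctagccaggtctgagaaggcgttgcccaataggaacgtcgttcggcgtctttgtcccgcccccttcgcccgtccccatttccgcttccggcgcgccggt
Atp5h, chr11:115419920-115420169, minus strand: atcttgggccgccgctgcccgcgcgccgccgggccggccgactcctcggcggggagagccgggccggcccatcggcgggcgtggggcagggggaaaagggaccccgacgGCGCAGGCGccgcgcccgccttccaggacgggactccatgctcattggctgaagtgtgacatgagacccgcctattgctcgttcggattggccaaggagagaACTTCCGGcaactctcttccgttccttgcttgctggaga
Cox8b, chr7:140900447-140900696, minus strand: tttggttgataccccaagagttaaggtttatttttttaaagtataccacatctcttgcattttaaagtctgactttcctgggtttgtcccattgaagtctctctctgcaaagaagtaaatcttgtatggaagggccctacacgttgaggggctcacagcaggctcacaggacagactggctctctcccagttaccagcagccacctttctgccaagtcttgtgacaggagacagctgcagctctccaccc
Sdha carried 3 matches, which began 98, 55 and 10 bases before the start. In Cox6a1 overlapping matches on the 2 strands began 162 and 161 bases before the start, and another match at 117 bases. Single NRF1 matches began at 98 bases in Ndufs5 and at 141 bases in Atp5h, where the ETS match began at 39 bases.

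Reads assigned to the listed genes ranged from 6108717 to 13744933 per mouse. Of the 81 members, 78 passed the filter, a mean of 10 or more normalised read counts over the 14 mice, as did 10689 genes in all. The 3 that did not were Ndufa12 at a mean of 6.26, Cox6b2 at 7.81 and Cox7b2 at 7.89. Defining genes of neurons were read in every mouse, and the 5 neuronal markers summed to 21649 to 27812 normalised counts. Choroid plexus genes (Ttr, Kl, Clic6, Sostdc1 and Aqp1) summed to 29784 in the highest 20Hz mouse against a 20Hz median of 497.7 and a 40Hz maximum of 382, and all 5 were high in 20Hz replicates 1 and 2. In bulk tissue, fewer cells of a type and less RNA per cell cannot be told apart.

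The members together took 1.19% to 1.63% of the reads of a mouse. Cox8a, the small subunit VIII of complex IV, stood highest per length at 23457 normalised counts per kb of its longest transcript, followed by Ndufa4 at 12292 and Cox6c at 10324 per kb. Among the subunits of the catalytic F1 head of ATP synthase, alpha (Atp5a1) stood at 4906 and beta (Atp5b) at 3624 per kb. Subunits that sit in one complex in fixed ratios were read at very different levels. In the core of complex I, Ndufv1, which carries the site that takes electrons from NADH, was read at 704 per kb, Ndufs3 at 614 and Ndufs8 at 519. Ndufv2 was read at 189 per kb, Ndufs7, which lies near the quinone site, at 33.3 and Ndufs1 at 14.7. Cox4i1, the common subunit IV of complex IV, was read at only 84.7 per kb.

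Low levels lay mostly with genes of several transcript models. Members with 1 RefSeq transcript model had a median of 1982 normalised counts per kb (n = 43), those with 2 had 582 (n = 20) and those with 3 or more had 106 (n = 15). The same order held over all listed genes, at 140.3, 33.0 and 12.8 per kb. Of the 14 members with a mean under 100, 10 had 2 or more models, among them Cox4i1, Ndufs1, Ndufs7, Ndufa13 and Atp5d. Over all listed genes under 100, 5588 had 2 or more models and 1343 had 1, so the members' share is not above that of all genes. How reads shared by transcripts or by near-identical gene copies were counted was not given in the sources used here, and its part in these levels was not tested. Levels of such genes, and of members with known processed pseudogenes, therefore cannot be read as the amount of their RNA. A comparison of the same gene between mice does not rest on its absolute level, but low genes carry more counting error.

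**Figure D1:**
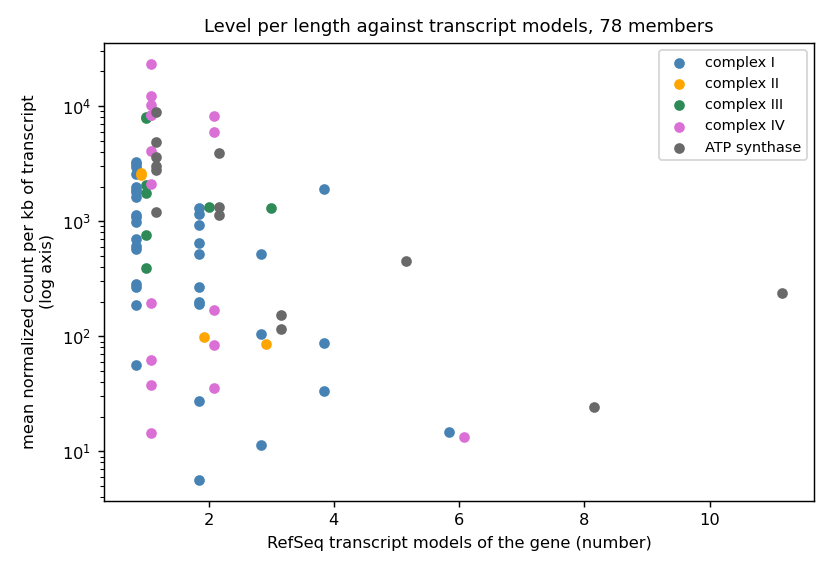
Mean normalised count per kb of longest transcript (log axis) against the number of RefSeq transcript models, 1 point per member with a length in the annotation (n = 78), coloured by complex and shifted sideways within a number so that points can be told apart. Members with 1 model sit around a median of 1982 per kb and members with 3 or more around 106.

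No member differed between 40Hz and 20Hz after adjustment over all genes. With limma, 0 of 78 members and 0 of 10689 genes passed an adjusted p of 0.05, and the smallest adjusted p of a member was 0.919. At an unadjusted p under 0.05, 6 members were counted (7.69%), against a background of 4.87% of all genes, and all 6 (Ndufs3, Ndufa1, Ndufa2, Ndufa5, Uqcrb and Uqcrq) were lower at 40Hz, where the background for that direction was 2.11%. The quasi-likelihood test of edgeR counted 6 members and 527 genes (4.93%) at that level and called 0 genes. Its 6 members held Cox8b in place of Ndufa1. DESeq2 counted 5 members (Ndufs3, Ndufa2, Ndufa5, Uqcrb and Cox8b) and 553 genes (5.17%) and called 3 genes, none of them a member. Groups overlapped for all 78 members, while 0.0374% of all genes did not overlap. The 95% interval of the difference lay within 1.5-fold either way for 75 of 78 members, against 72.0% of all genes, so for those members a larger difference lies outside the interval.

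The differences were small but leaned one way. Of 78 members, 71 had a value below 0 (91.0%), against a background of 51.2% of all genes, and the median log2 difference was -0.11 against -0.0035. The members moved together from mouse to mouse (median r of 0.59 over their pairs). Counts of members, here and below, are therefore not counts of independent observations, and the comparison rests on 7 mice per frequency. Lower values were found in 31 of 35 members of complex I (median -0.099), 4 of 4 of complex II (-0.089), 8 of 8 of complex III (-0.13), 12 of 15 of complex IV (-0.095) and 16 of 16 of ATP synthase (-0.12). The 7 members above 0 were Ndufs1, Ndufa9, Ndufa10, Ndufa13, Cox5a, Cox4i2 and Cox6a2, from 0.0069 (Ndufa10) to 0.17 (Cox6a2). Without 40Hz replicates 1 to 3, 42 of 78 members were below 0 and the median was -0.0073. By mean deviation over the members these are the 3 lowest of all 14 mice, so leaving them out had to shrink the lean.

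**Figure D2:**
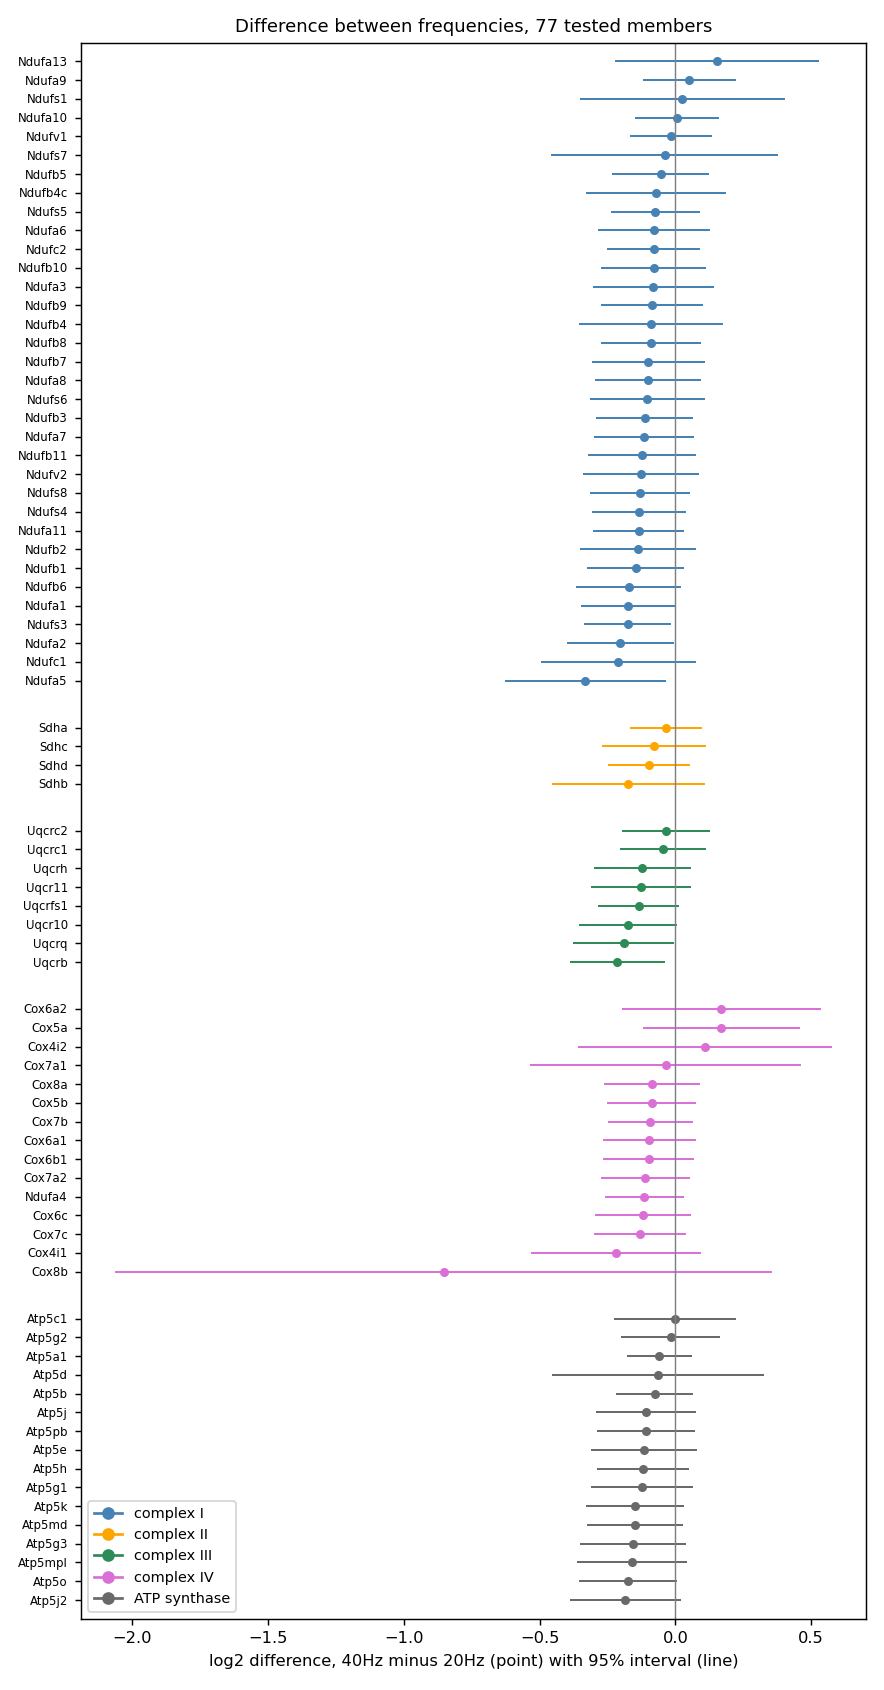
Log2 difference, 40Hz minus 20Hz, of each of 77 tested members (points) with its 95% interval from limma (lines), grouped and coloured by complex. Most points lie just left of 0 and most lines cross it, and the interval of Cox8b, -2.06 to 0.35, is the widest.

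In complex I, the core subunits carry the flavin and the iron-sulfur clusters that lead electrons from NADH to ubiquinone. Ndufs3, a core subunit, had 634 to 782 at 20Hz with a median of 659, and 546 to 686 at 40Hz with a median of 600.5. All but 1 of the 40Hz mice lay below the 20Hz median, the lowest being 40Hz replicates 2, 1 and 6, yet the groups overlapped. The log2 difference was -0.18 ± 0.076 (SE), with an adjusted p of 0.919 in limma. Among other core genes the log2 differences were -0.016 for Ndufv1, -0.13 for Ndufv2, -0.13 for Ndufs8, -0.039 for Ndufs7 and 0.025 for Ndufs1. The interval of the weakly read Ndufs7 (-0.45 to 0.37) was far wider than that of Ndufv1 (-0.16 to 0.13).

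The accessory subunits of complex I surround and stabilise the core. Ndufa5 had 81.8 to 141 at 20Hz with a median of 96.4, and 66.8 to 106 at 40Hz with a median of 77.1, a log2 difference of -0.33 ± 0.14 (adjusted p = 0.919, limma). Its lowest values were in 40Hz replicates 3, 7 and 5 and its highest in 20Hz replicates 7 and 3, with overlap between the groups. Ndufa2 had 828 to 1226 at 20Hz with a median of 959, and 739 to 1084 at 40Hz with a median of 868, a difference of -0.20 ± 0.093. Ndufa1, a small subunit whose gene is X-linked, had 1303 to 1617 at 20Hz with a median of 1432, and 1049.5 to 1590.3 at 40Hz with a median of 1252, a difference of -0.17 ± 0.081. In both of these genes 20Hz replicate 3 was the highest mouse, followed by 40Hz replicate 4, and 40Hz replicates 1 and 3 were the lowest, so the extremes were shared between genes. All 28 tested accessory genes had differences between -0.33 and 0.15, 25 of them below 0. Ndufb4 and Ndufb4c, a related copy, stood at -0.089 and -0.070, and reads of such copies may be split between them.

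Complex II is also the succinate dehydrogenase of the citric acid cycle, and it has no subunit made in the mitochondrion. Sdha, its flavoprotein, had 6414 to 8730.2 at 20Hz with a median of 7419.5, and 6649 to 7746 at 40Hz with a median of 7355 and a log2 difference of -0.034 ± 0.062. Sdhb, the iron-sulfur subunit, had 98.0 to 137 at 20Hz with a median of 120.2, and 72.0 to 135 at 40Hz with a median of 112 and a difference of -0.17 ± 0.13. The groups lay across each other in both genes, and the highest Sdha value was again in 20Hz replicate 3, whereas the lowest was in 20Hz replicate 2. The membrane anchors Sdhc and Sdhd differed by -0.080 ± 0.091 and -0.10 ± 0.071.

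Complex III carried the lowest median of the complexes. Uqcrb, a small accessory subunit, had 1051 to 1425 at 20Hz with a median of 1159.8, and 824 to 1140.2 at 40Hz with a median of 1069.5. All 7 of the 40Hz mice lay below the 20Hz median, with 40Hz replicates 3, 2 and 1 the lowest, and the highest 40Hz mice still lay above the lowest 20Hz mouse. The log2 difference was -0.21 ± 0.082, with an adjusted p of 0.919 in limma, and it had the smallest unadjusted p among members. Uqcrq, another accessory subunit, had 1815 to 2533 at 20Hz with a median of 2031, and 1502 to 2339 at 40Hz with a median of 1878, a difference of -0.19 ± 0.088. Uqcr10 had 539 to 671 at 20Hz with a median of 551, and 476 to 669.8 at 40Hz with a median of 503 and a difference of -0.17 ± 0.086. In these genes, too, 40Hz replicates 1 to 3 were the lowest mice and 20Hz replicate 3 the highest. The 5 accessory genes had a median of -0.17, while the Rieske iron-sulfur protein Uqcrfs1 differed by -0.14 ± 0.070 and the core proteins Uqcrc1 and Uqcrc2 by -0.046 ± 0.075 and -0.034 ± 0.076.

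In complex IV most subunits exist as a common form, and some have a second form known from heart, muscle, lung or testis. The 11 common forms had a median of -0.098, with 10 below 0. Ndufa4 had 7011 to 8854 at 20Hz with a median of 7598, and 6473 to 8299.8 at 40Hz with a median of 6989.7, a log2 difference of -0.11 ± 0.067. Cox7c had 5494 to 7518 at 20Hz with a median of 5999.5, and 4779.5 to 6794 at 40Hz with a median of 5451, a difference of -0.13 ± 0.080. Cox8a had 11944 to 14838 at 20Hz with a median of 13212, and 10250.0 to 15210.0 at 40Hz with a median of 11860.0, a difference of -0.086 ± 0.083. Here 40Hz replicates 1 and 3 were the lowest 2 mice in each of the 3 genes, and a 40Hz mouse, replicate 7, was the highest for Cox8a. Cox6a1, Cox6b1 and Cox7a2 differed by -0.10, -0.10 and -0.11, and Cox4i1 by -0.22 ± 0.15. For Cox4i1 the highest mouse was 40Hz replicate 7 at 88.7, close to 20Hz replicate 2 at 87.0. Cox5a, with 75.6 to 138 at 20Hz with a median of 101, and 82.7 to 134 at 40Hz with a median of 123, differed by 0.17 ± 0.14 in the other direction.

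The restricted forms were read at low levels. Cox6a2, the heart and muscle form that is also known from fast-spiking parvalbumin interneurons, had 70.4 to 174 at 20Hz with a median of 128, and 109.8 to 185 at 40Hz with a median of 128, a log2 difference of 0.17 ± 0.17. Cox4i2, known from lung and from pericytes, had 15.3 to 34.4 at 20Hz with a median of 27.2, and 17.7 to 41.8 at 40Hz with a median of 25.1, a difference of 0.11 ± 0.22. Cox7a1, a heart and muscle form, had 11.8 to 28.7 at 20Hz with a median of 16.5, and 11.3 to 23.1 at 40Hz with a median of 17.5, a difference of -0.036 ± 0.24. None of the 3 separated the frequencies. The Cox6a2 difference moved with single mice, to 0.043 without 20Hz replicate 2 and to 0.26 without 20Hz replicate 3. Counting alone would give a coefficient of variation of 24.3% for Cox7a1, where mice varied by 29.5%, of 19.9% against 28.5% for Cox4i2 and of 8.90% against 24.3% for Cox6a2.

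Cox8b, the heart and muscle form of subunit VIII, stood apart. It was read at 145.3 normalised counts in 20Hz replicate 2 and at 42.5 in 20Hz replicate 1, and at 3.20 to 16.7 in the other 12 mice. Ttr, the transthyretin gene that marks choroid plexus, was at 13256 and 2037 in the same 2 mice and at 9.08 to 55.0 in the other 12. Kl was at 7046 and 1286 there and at 136.6 to 370.7 elsewhere, and Clic6 at 4695 and 998 against 28.3 to 101.2. The log2 difference of Cox8b between frequencies was -0.85 ± 0.57 (adjusted p = 0.919, limma), and without these 2 mice it was -0.039. The part of choroid plexus tissue in the Cox8b reads was not tested, but the same 2 mice carry both.

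Across all 14 mice, 6 pairs of a subunit form and a marker were compared with permutation tests, adjusted over the 6. For Cox6a2 and Pvalb, the parvalbumin gene, r was -0.27 (p = 0.355, adjusted p = 0.426) and rho was -0.35 (p = 0.228, adjusted p = 0.29), and r was 0.015 without the 2 mice farthest from the Pvalb median. Without 1 mouse at a time this r ran from -0.62, without 20Hz replicate 2, to -0.087, without 40Hz replicate 1. For Cox4i2 and the pericyte gene Rgs5, r was 0.44 (permutation p = 0.121, adjusted p = 0.182) and rho was 0.37 (p = 0.2, adjusted p = 0.29), with r = 0.17 without the 2 farthest mice. For Cox7a1 and the smooth muscle gene Acta2, r was 0.042 and rho -0.16 (permutation p = 0.887 and 0.595). Against the neuronal gene Snap25, r was -0.45 for Cox6a1, -0.50 for Cox4i1 and -0.44 for Ndufa4 (permutation p = 0.108, 0.0708 and 0.112, adjusted p = 0.182 for each), and rho was -0.39, -0.39 and -0.34. These values pool the frequencies, between which Snap25 itself differed by 0.26 ± 0.098 (adjusted p = 0.919, limma). After each frequency's mean was subtracted, r was -0.36, -0.34 and -0.26. Without the 2 mice farthest from the Snap25 median it was -0.23, -0.57 and -0.18. No pair passed adjustment.

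**Figure D3:**
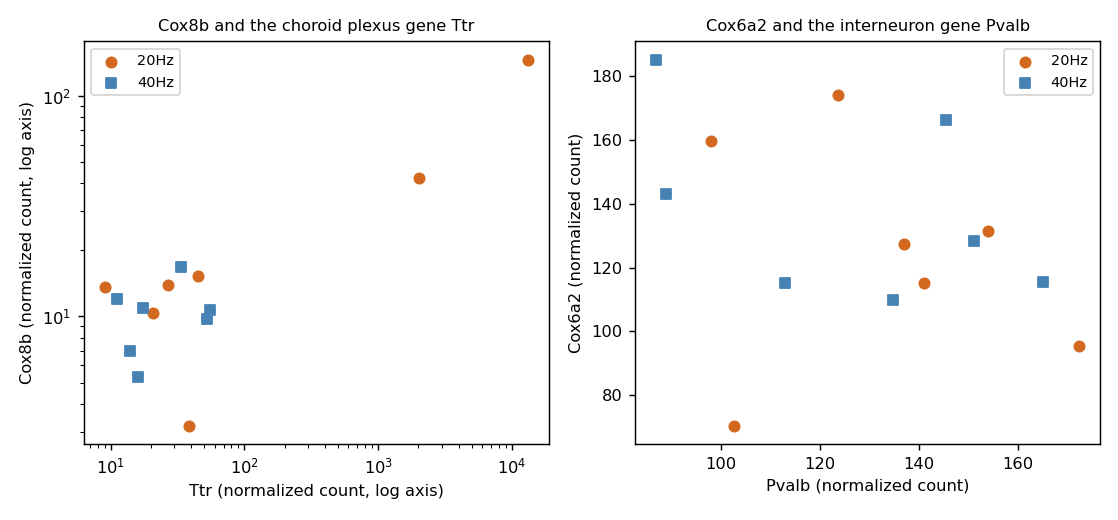
Normalised counts in each of the 14 mice (20Hz circles, 40Hz squares): Cox8b against the choroid plexus gene Ttr on log axes (left) and Cox6a2 against Pvalb on linear axes (right). On the left, 2 of the 20Hz mice lie far up and right of the other 12, and on the right the points form no line.

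ATP synthase is built of a catalytic F1 head, a rotor with a ring of c subunits, a peripheral stalk and a membrane part that holds dimers together. In the head, Atp5a1 (alpha) had 11751 to 15114 at 20Hz with a median of 13345, and 11694 to 13829 at 40Hz with a median of 13030.0, a log2 difference of -0.059 ± 0.056. Atp5b (beta) had 6014 to 8140.4 at 20Hz with a median of 7124, and 5997 to 7440.3 at 40Hz with a median of 7049, a difference of -0.077 ± 0.066. Both were low in 40Hz replicates 1 to 3 and in 20Hz replicate 2, and high in 20Hz replicate 3, so the groups overlapped. Atp5c1 (gamma) and the weakly read Atp5d (delta) differed by -0.0022 and -0.064. The 3 genes for the same mature c subunit, Atp5g1, Atp5g2 and Atp5g3, differed by -0.12, -0.017 and -0.16. In the peripheral stalk, Atp5o, the subunit that joins the stalk to the head, had 942 to 1248 at 20Hz with a median of 1048, and 800.1 to 1122 at 40Hz with a median of 872, a difference of -0.17 ± 0.085. The 4 membrane genes had a median of -0.15: Atp5j2 (subunit f) differed by -0.19 ± 0.10 and Atp5md by -0.15 ± 0.083. None of the 16 genes of ATP synthase had an unadjusted p under 0.05 in limma, against a background of 4.87% of all genes, which leaves few to be counted among 16.

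The variation between mice was larger than the difference between frequencies, and it ran through the complexes together. Each member's log2 value was set against its own mean over the 14 mice, and the deviations were averaged over the 78 members. The lowest averages were in 40Hz replicates 1 (-0.23), 3 (-0.17) and 2 (-0.099), followed by 20Hz replicate 2 (-0.070). The highest were in 20Hz replicate 3 (0.24), 40Hz replicate 4 (0.14) and 20Hz replicate 1 (0.14). Group means were 0.053 ± 0.11 (SD, n = 7) at 20Hz and -0.053 ± 0.13 (SD, n = 7) at 40Hz, so the difference was smaller than the spread of either group. By this mean the 3 lowest mice were all from 40Hz, and the upper end held mice of both frequencies. The third place depends on the measure, since the high Cox8b value of 20Hz replicate 2 raised its mean. By the median deviation over the members, 20Hz replicate 2 (-0.12) lay below 40Hz replicate 2 (-0.11).

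Most members followed this order. In 40Hz replicates 1, 3 and 2, 70, 72 and 66 of the 78 members lay below their own median over the mice, and in 20Hz replicate 3 only 7 did. Over all genes that share was between 48.0% and 53.6% in every mouse. For 35 members 40Hz replicate 1 was the lowest mouse and for 19 it was 40Hz replicate 3, against 6.84% and 6.78% of all genes. For 48 members 20Hz replicate 3 was the highest mouse, against 13.3% of all genes. Complexes I, III and ATP synthase ranked the mice almost alike, with 40Hz replicate 1 the lowest and 20Hz replicate 3 the highest in each. In complex IV, 20Hz replicate 2 ranked 12 of 14 from the lowest (0.15) although it was low in the other complexes. Cox8b stood at 145.3 in this mouse and at 42.5 or less in every other, and this 1 gene lifts the mean over 15 genes. The rank is thus no trait of complex IV as a whole. Among 20Hz mice, this mouse was lowest for Ndufa4 (7011) and Cox7c (5494) but highest for Cox4i1 and Cox5a.

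**Figure D4:**
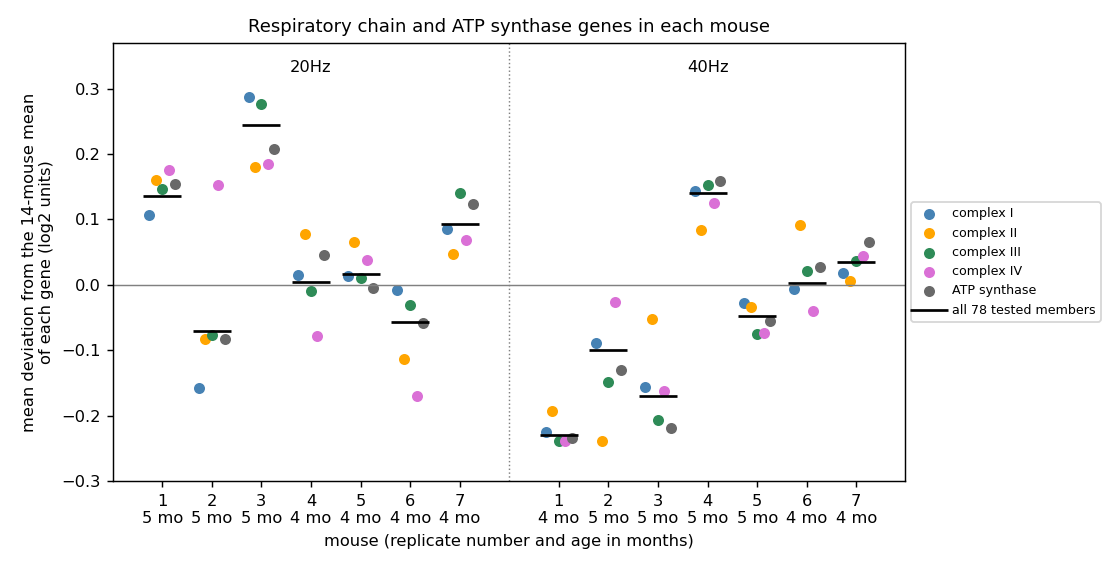
Mean deviation of the members from their 14-mouse means (log2 units), for each mouse, by complex (coloured points) and over all 78 tested members (black bars), with replicate number and age in months below. The bars run from -0.23 in 40Hz replicate 1 to 0.24 in 20Hz replicate 3. The complexes of 1 mouse lie farthest apart in 20Hz replicate 2, where complex IV is at 0.15, a mean lifted by Cox8b. Next is 40Hz replicate 2, where complex II is at -0.24.

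Pairs of members moved together from mouse to mouse after each frequency's mean was subtracted. The median r over 3003 pairs was 0.59, and 84.9% of pairs were positive, while the median over all pairs of tested genes was -0.0023. Among the 53 members with a mean of 500 or more, where counting error is small, the median was 0.79 and 100% of pairs were positive, against 0.068 over all genes of that level. Pairs within complex I (0.58), complex II (0.46), complex III (0.68) and ATP synthase (0.64) and pairs between complexes (0.59) had medians from 0.46 to 0.68, and complex IV, which holds the restricted forms, had 0.24. These correlations are across 14 mice that share a library each, and they are given as a description.

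By its correlation with the mean of the other members, Ndufc2 (0.99), Cox7c (0.98), Uqcrh (0.97) and Ndufb10 (0.97) lay closest to the shared pattern, and 63 of 78 members had a value above 0.5. All 53 members with a mean of 500 or more were among those 63. Among the 7 members below 0 were Cox5a (-0.54), Ndufa9 (-0.44), Ndufs1 (-0.24), Atp5j (-0.19), Cox8b (-0.069) and Cox6a2 (-0.029), named here after their values were seen. Ndufa9, an accessory subunit at the quinone arm of complex I, had 243 to 287 at 20Hz with a median of 268, and 245 to 302 at 40Hz with a median of 279. Its highest value was in 40Hz replicate 1 and its lowest in 20Hz replicate 3, the reverse of most members. Cox5a, likewise, was lowest in 20Hz replicate 1 and highest in 20Hz replicate 2. Atp5j has 11 transcript models in RefSeq, the most of any member.

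The spread was above counting error for well-read members. At a mean of 500 or more, the median coefficient of variation over the 14 mice was 11.8%, where counting alone would give 2.78%, and over all genes of that level it was 9.81%. Atp5a1 varied least, by 6.63%, and Cox8b most, by 162%. Members read under 100 had a median of 22.3% (n = 11 tested).

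Other measures of the lowest mice were read beside the members. The 3 lowest mice by mean deviation, 40Hz replicates 1 to 3, had 11516541 to 13744933 reads and were the deepest of their group. Their animal numbers are the 3 lowest in the labels. In 20Hz replicate 5, with 12818759 reads and so deeper than 2 of these 3, the mean deviation of the members was 0.017. The shallowest mice, 40Hz replicate 7 (6108717 reads) and 20Hz replicate 7 (7149077 reads), were at 0.034 and 0.094. Hba-a1, a haemoglobin gene that marks red blood cells, was at 2146 to 2349 in these 3 mice and at 990.2 to 2022 in the other 11. Of those 11, 20Hz replicate 3, the mouse with the highest members, had the most. The red blood cell list summed to 7012 to 7665 normalised counts in these 3 mice. It summed to 7039 in 20Hz replicate 3, so the list as a whole did not set the 3 mice apart. The pericyte gene Rgs5 was at 6018 to 6975 in these 3, at 6537 in 40Hz replicate 5 and at 4241 to 5379.8 in the other 10. Since no 20Hz mouse shares these animal numbers, a batch of that kind and the frequency cannot be told apart within those 3 mice, and the part of blood, vessels and depth in the members' values was not tested.

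Short transcripts as a class leaned the same way. Members are short, with a median length of 809 bases, and 44 of the 47 members under 1 kb were below 0 for 40Hz against 20Hz (median -0.11). Of the 569 other tested genes under 1 kb, 65.4% were below 0 (median -0.056), as were 61.2% at 1 to 2 kb, 50.6% at 2 to 4 kb and 43.4% at 4 kb or more (median 0.022). Over the same short genes the mean deviation of a mouse was -0.10 in 40Hz replicate 1 and 0.14 in 20Hz replicate 3, the same ends as for the members. Members lay below the other genes in each length class, but the classes of 2 to 4 kb and of 4 kb or more held only 6 and 2 members. Length here is that of the longest annotated transcript, which need not be the one read. The part of transcript length in the members' values was not tested. The number of transcript models went with the difference as well. Of 3487 other tested genes with 1 model, 62.7% were below 0 (median -0.032), against 45.4% of 7003 with 2 or more (0.017). Among members, 41 of 43 with 1 model and 30 of 35 with 2 or more were below 0, and the part of model number was not tested. Members with the NRF1 motif (13 of 13 below 0, median -0.097) and those without (46 of 50, -0.11) had like medians.

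**Figure D5:**
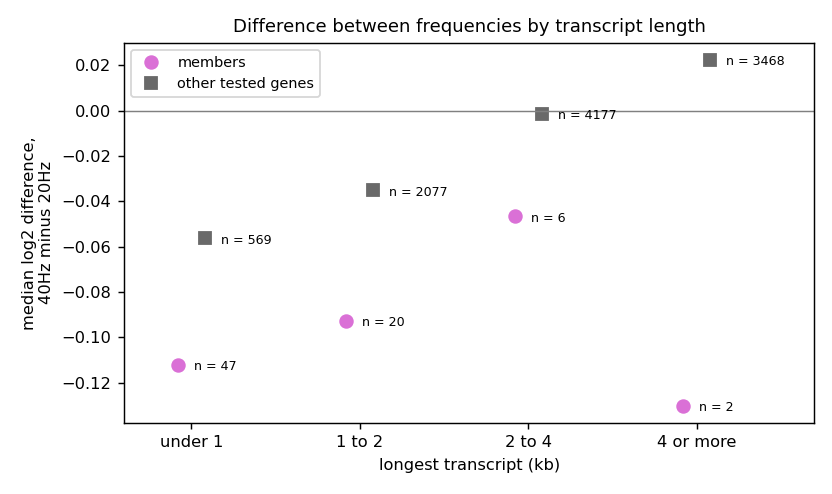
Median log2 difference, 40Hz minus 20Hz, of members (circles) and other tested genes (squares) by length of the longest transcript in kb, with the number of genes beside each point. The squares climb from -0.056 under 1 kb to 0.022 at 4 kb or more, and the circles lie below them, with only 2 members in the last class.

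Age was the other label that differed between mice, with 7 mice at 5 months and 7 at 4 months. With frequency in the fit, 0 of 78 members and 0 of 10689 genes passed an adjusted p of 0.05 in limma, and the smallest adjusted p of a member was 0.613. Only 2 members had an unadjusted p under 0.05 (2.56%), against a background of 7.86% of all genes, and edgeR (background 7.36%) and DESeq2 (7.67%) gave 2 each and called 0 genes. Ndufb7 had 508.9 to 717.8 normalised counts at 4 months with a median of 690.2, and 604.5 to 890.9 at 5 months with a median of 725. The ages overlapped, and the log2 difference was 0.20 ± 0.091 (adjusted p = 0.616, limma). Cox8b differed by 1.11 ± 0.51 (adjusted p = 0.613, limma), but both mice with high choroid plexus genes were 5 months old, and without them the difference was 0.22.

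In the other direction of the lean, 59 of 78 members were above 0 at 5 months, against a background of 50% of all genes, with a median of 0.049. Here, too, the members are not independent of each other. By complex, 27 of 35 (complex I), 2 of 4 (complex II), 6 of 8 (complex III), 13 of 15 (complex IV) and 11 of 16 (ATP synthase) were above 0. Uqcrq (0.15 ± 0.083, adjusted p = 0.682) and Ndufv1 (0.12 ± 0.068, adjusted p = 0.698) had the next smallest p-values in limma. Without 20Hz replicate 3, the 5-month-old mouse with the highest members, the median was 0.0015, with 38 members below 0, and leaving out that mouse had to lower it. Mean deviations were 0.019 ± 0.15 (SD, n = 7) at 5 months and -0.019 ± 0.10 (SD, n = 7) at 4 months.

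Whether the frequency difference itself differed with age was tested by the product of both terms. No member was called in limma (smallest adjusted p 0.99993) and 0 genes were, while edgeR called 0 and DESeq2 called 4 genes, none a member. At an unadjusted p under 0.05 there was 1 member, Ndufs7 (1.28%), against a background of 3.78% of all genes, and edgeR (background 3.7%) and DESeq2 (3.56%) gave 1 each, Ndufs7 in edgeR and Cox8b in DESeq2. For Ndufs7 the log2 value for the product was 0.83 ± 0.37 (adjusted p = 0.99993, limma), at a mean of 32.7 normalised counts, where counting error alone is 18.0%. The product was below 0 in 58 of 78 members, which are not independent of each other, against 49.4% of all genes, with a median of -0.075. Mean deviations of the members were 0.014 ± 0.062 (SD, n = 4) at 20Hz and 4 months, 0.10 ± 0.16 (SD, n = 3) at 20Hz and 5 months, -0.064 ± 0.14 (SD, n = 3) at 40Hz and 4 months and -0.044 ± 0.13 (SD, n = 4) at 40Hz and 5 months.

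Genes that build or feed the chain were read from fixed lists, none of which held a called gene in limma. Of 38 tested assembly factors, 28 were below 0 at 40Hz (median -0.044). Sdhaf3, which helps insert the iron-sulfur subunit of complex II, had 129.6 to 206 at 20Hz with a median of 159, and 93.1 to 137 at 40Hz with a median of 123. Its log2 difference was -0.40 ± 0.12 (adjusted p = 0.919, limma), larger than that of any complex II subunit, and the groups overlapped only at their edges. Fmc1, an assembly factor of ATP synthase, differed by -0.26 ± 0.12 (adjusted p = 0.919, limma). These 2 were the only ones of the 38 with an unadjusted p under 0.05 in limma, near the background of 4.87% of all genes.

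Cytochrome c itself (Cycs), the carrier between complexes III and IV, had 6691 to 8696 at 20Hz with a median of 7753, and 6383 to 8671 at 40Hz with a median of 7263, a log2 difference of -0.11 ± 0.071. Cyc1, a complex III subunit that the symbol rule leaves out, differed by -0.077, and Ndufab1, the acyl carrier protein of complex I, by -0.11. Values close to the members' median were thus found in these 3, while the ubiquinone genes Coq4 (0.17 ± 0.078, adjusted p = 0.919, limma) and Coq2 (0.16) lay above 0. Of that list of 11 tested genes, 7 were below 0 (median -0.044).

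Of 12 tested citric acid cycle and pyruvate dehydrogenase genes, 11 were below 0 (median -0.060), and Sucla2, a subunit of succinyl-CoA ligase, differed by -0.27 ± 0.13 (adjusted p = 0.919, limma). Of 11 carriers and porins, 8 were below 0 (-0.020), as were 10 of 15 glycolysis genes (-0.051). The regulators of mitochondrial biogenesis had 5 of 11 below 0 (0.028): Ppargc1a, the coactivator known as PGC-1alpha, differed by -0.21 ± 0.20, Tfam by -0.059 and Yy1 by -0.048, and Gabpb1 by 0.15. Among cell type markers, the neuronal list had 1 of 5 below 0 (median 0.18), the astrocyte list 3 of 5 (-0.050), the oligodendrocyte list 3 of 5 (-0.037) and the microglia list 0 of 4 (0.0090). The endothelial list had 1 of 5 below 0 (0.31), the list for pericytes and smooth muscle 0 of 4 (0.25), the red blood cell list 0 of 4 (0.23), the parvalbumin interneuron list 2 of 5 (0.057) and the choroid plexus list 5 of 5 (-1.73).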

How the data were processed

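Visual cortex RNA of 14 mice, isolated by a column kit per the labels' protocols, was sequenced. The deposited table gives a signal value per gene and mouse, which is a read count divided by 1 factor per mouse; that reading comes from the values, since 100% were whole reads within 0.01 read once the factor was recovered. Per the submitters' processing notes, GRCm39 and DESeq2 were used, without a version or role. The aligner, counter, annotation and strandedness were not given in the sources used here. All 14 columns matched a labelled animal.

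Values were taken as log2(normalised count + 1), which understates changes of low genes, and genes with a mean under 10 (2185 of 12874) were left out. Groups were compared over all 10689 remaining genes with limma 3.58.1 in R 4.3.3 (trend and robust shrinkage, Benjamini-Hochberg, threshold 0.05); age was fitted with frequency, and their product tested. Alternatives were edgeR 4.0.16 and DESeq2 1.42.0 on recovered reads, other pseudocounts, filters and scalings, age or a replicate block as terms, and mice left out. The models were tested on simulated data. Correlations with markers used 100000 permutations. Lengths are of the longest GENCODE transcript, transcript models and promoters are of RefSeq GRCm38.p6, another build than the notes name, so they were joined by symbol only (81 members with models, 78 with a length). Nothing says how the 7 mice of a group were housed or handled; p-values measure the spread between these animals. No 2 libraries of a group agreed within sampling noise (lowest chi-square per degree of freedom 5.17). Named genes were fixed by rule: core and catalytic subunits, paralogous forms, and in each complex the 3 smallest p-values for frequency and the 2 smallest for age. Ndufa1, Ndufa9, Ndufa13, Ndufb4, Ndufb4c, Cox5a, Atp5j and other members outside that rule were named after their values were seen, or for a printed promoter. The values of 1 member are not reported here, and it is counted in the totals but not among the 77 plotted differences or the 41 named members searched for outlying mice. The NRF1 motif was shortened by 1 letter after a longer form had been searched; the longer form matched the same members and was rarer among all promoters, so the shares printed are those of the shorter form only. The members, lists and left-out mice were chosen with earlier results of these data known.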

Additional observations from a re-analysis of the deposited data

Results flagged for a closer look

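Within each frequency, the 41 named members and 6 mean deviations (of all members and of the 5 complexes) were searched for a mouse far from the other 6, by Dixon's ratio of the gap to the range (above 0.568 for 7 mice). Of 94 searches 4 were met, and chance flags about 1 in 20 groups. Cox8b was at 145.3 normalised counts in 20Hz replicate 2, with the next mouse at 42.5; both mice are those with high choroid plexus genes. Cox4i1 was at 88.7 in 40Hz replicate 7, with the next at 58.2. Uqcr10 was at 669.8 in 40Hz replicate 4, with the next at 543, and this mouse had the highest members of its group. Uqcrc2 was at 901.2 in 20Hz replicate 1, with the next at 776.4. The causes of these values were not tested.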

How the results depend on the processing

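No member was called under any alternative run, for frequency, age or their product. For frequency, DESeq2 called 3 genes, and without 40Hz replicates 1 to 3, 42 of 78 members were below 0. Among genes of 1 transcript model, an alternative chosen after seeing the data, 41 of 43 members were below 0. Of the other tested genes with 1 model, 62.7% were below 0. Leaving out 1 mouse at a time gave 65 to 72 members below 0 and a median of -0.14 to -0.070, the last without 20Hz replicate 3. For age, 1 gene was called without 40Hz replicates 1 to 3, and members below 0 numbered 9 with CPM, 11 without 20Hz replicates 1 and 2, 10 of 43 with 1 transcript model, and 11 to 38 without 1 mouse, with a median of 0.0015 to 0.083. DESeq2 called 4 genes for the product.

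Replicate numbers do not pair the mice: same-numbered mice correlated at -0.13 to 0.08, 0 of 7 pairs over 0.1, and 2 of 7 mice best with their own number. With the replicate block, 0 genes were called for frequency and 71 members were below 0 (median -0.11). For age, 7 were below 0 and the median was 0.20. Only replicate numbers 1, 4 and 5 join mice of different ages, so the age values of that fit rest on those numbers.

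Signs changed for several members. Without 40Hz replicates 1 to 3 the log2 differences were 0.054 (Ndufv1), 0.032 (Ndufv2), 0.00696 (Ndufs7), 0.031 (Ndufb7), 0.019 (Sdha), 0.042 (Uqcrc1), 0.054 (Uqcrc2), 0.00114 (Cox6a1), 0.0059 (Cox6b1), 0.035 (Cox8a), -0.020 (Cox4i2), 0.11 (Cox7a1), 0.011 (Atp5b), 0.087 (Atp5c1), 0.16 (Atp5d), 0.018 (Atp5g1) and 0.088 (Atp5g2). With CPM they were 0.013 (Ndufv1), 0.027 (Atp5c1) and 0.011 (Atp5g2), with TMM 0.0027 (Atp5c1), and without 20Hz replicates 1 and 2 0.066 (Cox7a1) and 0.00117 (Atp5g2). Without 1 mouse they ranged over -0.044 to 0.017 (Ndufv1), -0.041 to 0.098 (Ndufs1), -0.17 to 0.053 (Ndufs7), -0.070 to 0.0039 (Sdha), -0.067 to 0.0098 (Uqcrc2), -0.0011 to 0.20 (Cox4i2), -0.13 to 0.074 (Cox7a1), -0.054 to 0.051 (Atp5c1), -0.13 to 0.012 (Atp5d) and -0.065 to 0.029 (Atp5g2), and r of Cox7a1 with Acta2 over -0.44 to 0.25. The cause was not tested. Depth limits the lowest-read members, such as Cox7a1, where counting alone gives a coefficient of variation of 24.3%.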
